A study of Mus musculus with 6 samples.

Results

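Aminoacyl-tRNA synthetases were followed by their mRNA in activated mouse CD4 T cells. The 35 genes were chosen by name and all 35 had a row among the 24047 rows of the deposited count table. They fall into 20 genes of cytosolic enzymes and 15 genes of mitochondrial enzymes. Each of the 6 libraries came from naive (CD62L+) CD4 T cells of the spleen of a 7-week-old mouse of a strain labelled B6.129. Activation lasted 72 h, on anti-CD3 at 0.5 µg/mL together with anti-CD28 at 1 µg/mL, and was followed by 4 h of PMA at 100 ng/mL plus ionomycin at 1 µM. These agents act on the T cell receptor, its costimulatory receptor and the signals downstream of both. There were 3 libraries labelled WT and 3 labelled Srsf1-flox/flox dLck.Cre, called Srsf1-cKO here. In the latter, Srsf1, a splicing factor gene flanked by loxP sites, is to be deleted by a Cre under the distal Lck promoter, which is active in T cells. The labels do not say whether the WT mice carried the floxed allele or the Cre.

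The libraries held between 7781283 and 10184268 gene counts. Levels of one gene across libraries are given as CPM, counts relative to the library total after TMM scaling. The check of the targeted gene did not separate the genotypes. Srsf1 mRNA stood at 540.5, 458 and 486 CPM in WT and at 523, 548 and 471 CPM in Srsf1-cKO, with edgeR adjusted p = 0.78. These counts are summed along the whole gene, and whether a part of it was lost was not tested. Every direction below is that of libraries as labelled. The summed CPM of 8 genes that mark CD4 T cells lay between 2564 and 2841 in WT and between 2284 and 3290.3 in Srsf1-cKO. Summed myeloid markers were at 0.66 to 4.75 CPM in WT and 7.46 to 22.1 in Srsf1-cKO, and summed B cell markers were at 1.19 to 6.89 and 8.26 to 21.4, with S100a9 at 0 in all libraries. A chi-square per degree of freedom over genes was 19.1, 28.1 and 39.7 for the pairs of WT libraries. It was 6.58 for Srsf1-cKO replicates 1 and 2, which were the closest pair, and 29.0 and 22.3 for replicate 3 against each of them, within the WT range. In bulk RNA, fewer cells of a type and less RNA per cell cannot be told apart.

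Each synthetase joins an amino acid to its matching tRNA, and the ribosome relies on that match to read the code. The cytosolic and the mitochondrial enzymes are both encoded in the nucleus, mostly by separate genes whose mitochondrial member carries the suffix 2. Eprs encodes an enzyme that charges both glutamate and proline tRNAs, and Gars and Kars serve both compartments. Several cytosolic enzymes are held together with scaffold proteins in the multisynthetase complex. Uncharged tRNA is sensed by the kinase GCN2, whose signal raises translation of the transcription factor ATF4, and many cytosolic synthetase genes are known targets of ATF4. Proliferating T cells raise protein synthesis after activation and depend on charged tRNA for it.

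Levels of different genes were compared as FPKM, which is scaled by transcript length. The 20 cytosolic genes had WT means from 27.4 FPKM (Farsa) to 258 FPKM (Nars), with a median of 66.1. The mitochondrial genes were lower, with WT means from 1.38 FPKM (Aars2) to 18.3 FPKM (Yars2) for all but Lars2, whose WT mean was 240.4 ± 87.9 FPKM (SD, n = 3). Over all 6 libraries Lars2, the gene of the mitochondrial leucine enzyme, ranked first of the 35, ahead of Nars (asparagine) and Gars (glycine). The part of ribosomal RNA reads in the Lars2 level, taken up below, was not tested. Nars at 258 ± 32.0 FPKM, Lars2 and Gars at 227 ± 9.46 FPKM in WT did not differ beyond their spread. They were followed by Sars (serine, 131 ± 13.2), Kars (lysine, 129 ± 14.3), Tars (threonine, 120.02 ± 9.18) and Iars (isoleucine, 111 ± 6.96), where the ranges of mean ± SD of neighbours overlapped. In 11 of the 12 cytosolic and mitochondrial pairs that share an amino acid the cytosolic gene was the more abundant, from 3.52-fold (Yars over Yars2) to 102-fold (Nars over Nars2) in WT. Lars over Lars2 was the exception, at a ratio of 0.198.

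**Figure D1:**
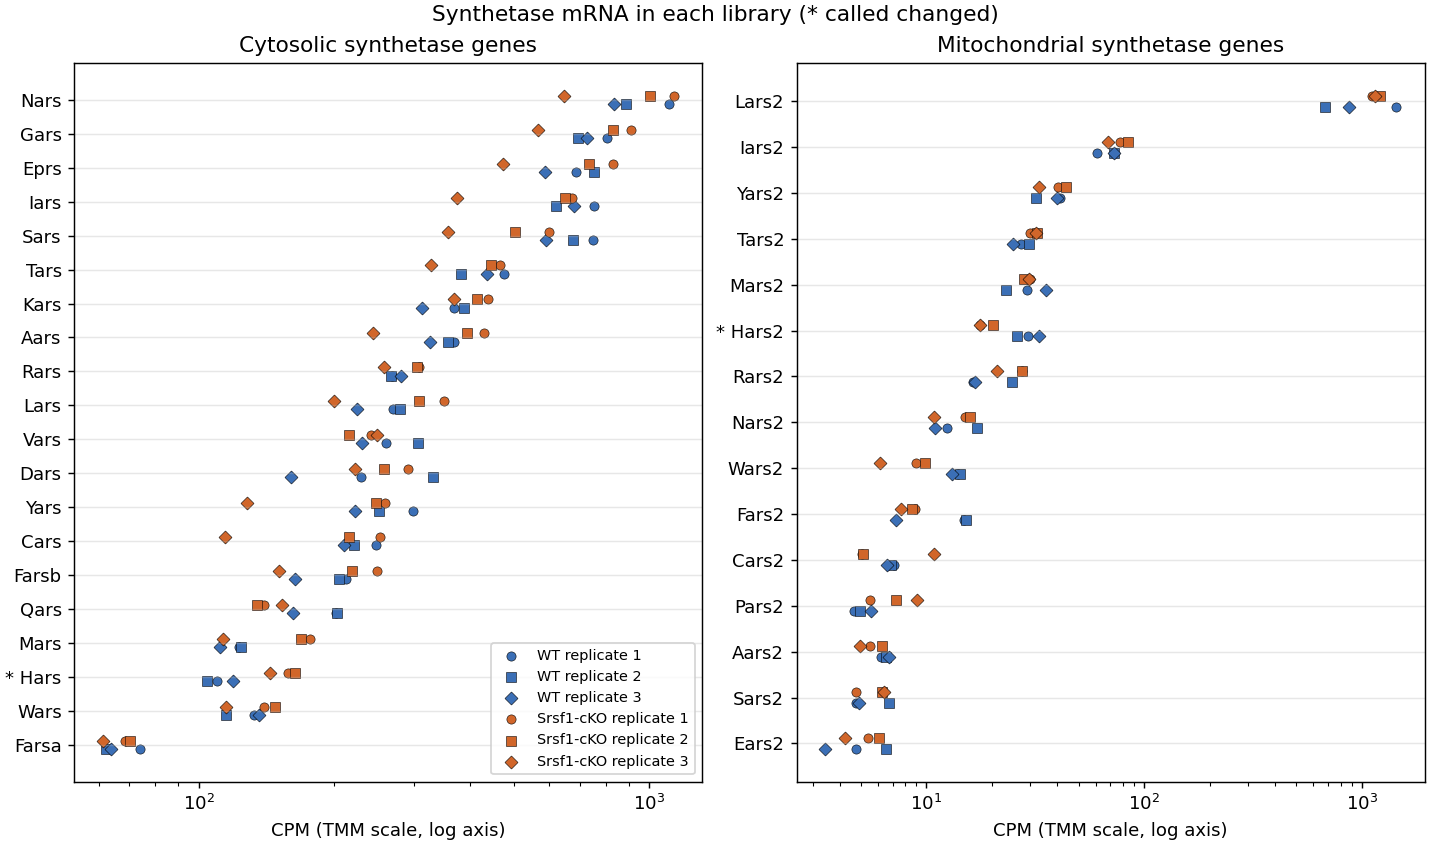
CPM of each synthetase gene on a log axis, with 1 point per library (blue for WT, orange for Srsf1-cKO, marker shape for the replicate) and genes ordered by their mean. Most genes overlap between genotypes, whereas Hars, Qars, Hars2, Tars2 and Wars2 do not. The Srsf1-cKO replicate 3 diamonds lie lowest for 14 of the 20 cytosolic genes.

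Between the genotypes 1 synthetase gene rose, Hars, and 1 fell, Hars2, and the other 33 did not pass edgeR's quasi-likelihood test at an adjusted p under 0.05. That is 5.71% of the members, beside 18.4% of the 10454 genes tested (8.9% higher and 9.5% lower). With scaling by library size alone, the share of all calls that were higher was 64.1% instead of 48.4%, and the calls of Hars and Hars2 kept their directions. All 35 members passed the filter on low counts. Their median log2 fold change, Srsf1-cKO over WT, was 0.04, beside 0.01 over all genes, with 0.01 for the cytosolic and 0.05 for the mitochondrial genes. The CPM values of the genotypes did not overlap for 5 members (Hars, Qars, Hars2, Tars2 and Wars2), or 14.3%, beside 39.4% of all genes tested. For 31 of the 35 the 95% interval of the log2 fold change lay within -1 and 1, that is within a 2-fold change, as it did for 63.5% of all genes. The exceptions were Fars2, Hars2, Pars2 and Wars2, all mitochondrial. At an unadjusted p under 0.05 there were 5 members, namely Hars, Qars, Sars, Hars2 and Wars2, beside 3644 of the 10454 genes tested. The same background applies to such counts in the groups and lists below. Without WT replicate 1, without Srsf1-cKO replicate 1 or without Srsf1-cKO replicate 2, 0 synthetase genes passed edgeR's test in either direction. The calls over all genes were then 195, 1121 and 234 instead of 1923.

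**Figure D2:**
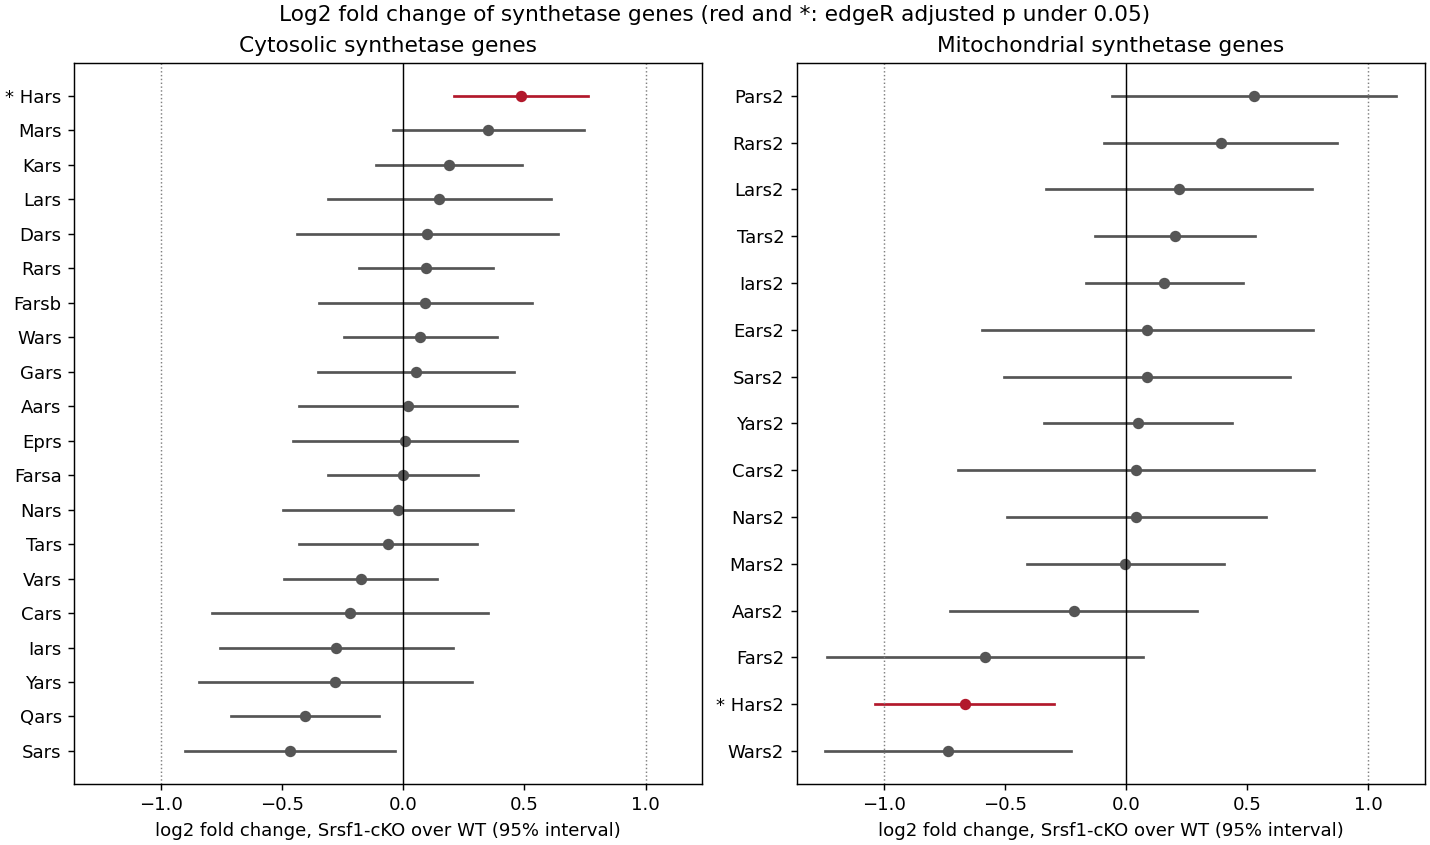
Log2 fold change of each synthetase gene, Srsf1-cKO over WT, with its 95% interval, ordered within cytosolic and mitochondrial genes. Hars at 0.49 and Hars2 at -0.67 are the called genes (red), and most other intervals cross 0 and stay between the dotted lines at -1 and 1.

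Hars encodes the cytosolic enzyme that charges histidine tRNA, and Hars2 encodes its mitochondrial counterpart. Hars stood at 109.6, 104 and 119 CPM in WT and at 158, 164 and 144 CPM in Srsf1-cKO. All 3 Srsf1-cKO libraries were above all 3 WT libraries, by a log2 fold change of 0.49 (SE 0.12, 95% interval 0.21 to 0.76, edgeR adjusted p = 0.0277). Hars2 stood at 29.3, 26.01 and 32.9 CPM in WT and at 17.7, 20.3 and 17.6 CPM in Srsf1-cKO. Here the groups were ordered the other way, with a log2 fold change of -0.67 (SE 0.16, 95% interval -1.04 to -0.30, edgeR adjusted p = 0.0264). The ratio of Hars to Hars2 FPKM, chosen after the values were seen, was 6.13, 6.48 and 5.82 in WT and 14.9, 13.5 and 13.9 in Srsf1-cKO. Its means were 6.14 ± 0.329 and 14.1 ± 0.689 (SD, n = 3 each). The exact two-sided permutation p was 0.1, the smallest that 3 against 3 libraries allow. This outcome was fixed by taking a gene wholly higher over a gene wholly lower, so it adds no support. On the log2(FPKM + 1) scale limma, which called 18.7% of the 9617 genes it tested, also called both, at 0.58 (adjusted p = 0.0181) for Hars and -0.51 (adjusted p = 0.0426) for Hars2.

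**Figure D3:**
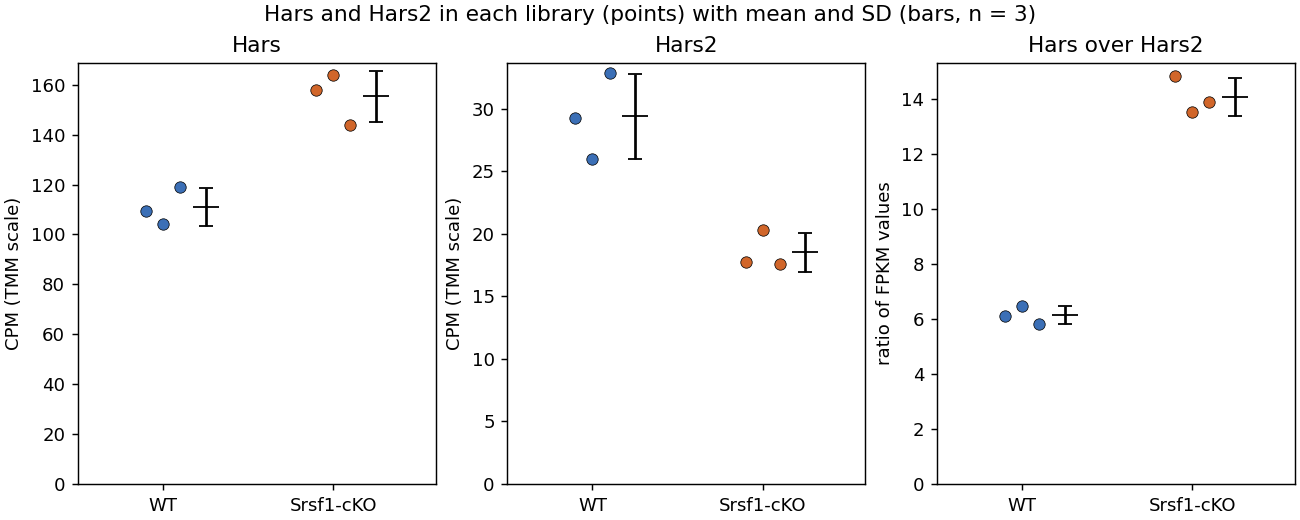
CPM of Hars and of Hars2, and the ratio of their FPKM values, with 1 point per library and the mean with SD beside each group (n = 3). The groups do not overlap for either gene, Hars being higher and Hars2 lower in Srsf1-cKO. The ratio, which must then separate too, moves from 6.14 to 14.1.

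The histidine genes lie head to head on opposite strands, and in the GENCODE M21 annotation (GRCm38) their 5′ exons overlap by 195 bases. That is 7.97% of the exonic bases of Hars and 4.56% of those of Hars2. The library kit keeps the strand, but the sources used here do not say whether the counting did, so reads from the overlap may have been counted for either gene. Of the 75-base stretches (the read length) of Hars transcripts, 4.86% occur on the other strand of Hars2, and 0 are shared in the same orientation. The call of Hars was lost without WT replicate 1 (adjusted p = 0.116), WT replicate 2 (0.0581), Srsf1-cKO replicate 1 (0.0846) or Srsf1-cKO replicate 2 (0.129). The call of Hars2 was lost without WT replicate 1 (adjusted p = 0.0928) or Srsf1-cKO replicate 1 (0.0824), 2 (0.0841) or 3 (0.0581). With each library left out in turn, the log2 fold change lay between 0.44 and 0.54 for Hars and between -0.75 and -0.60 for Hars2.

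Of the 8 enzymes of the multisynthetase complex 0 passed in either direction, beside 18.4% of all genes (1, Qars, had an unadjusted p under 0.05). Their median log2 fold change was 0.10. Qars, the glutamine enzyme, came closest. It stood at 202, 203 and 162 CPM in WT and at 139.8, 134 and 153 in Srsf1-cKO, without overlap, at a log2 fold change of -0.41 (SE 0.14, edgeR adjusted p = 0.0669). It was called by DESeq2 (adjusted p = 0.0464) and without WT replicate 3 (-0.52, adjusted p = 0.0257). Without any other single library Qars was not called by edgeR (adjusted p between 0.0688 and 0.232). Nor was it called by limma on log2(FPKM + 1) (-0.26, adjusted p = 0.191). Mars, the methionine enzyme, stood at 123, 124 and 112 CPM in WT and at 176, 169 and 113 in Srsf1-cKO, so that Srsf1-cKO replicates 1 and 2 lay above WT and replicate 3 within it. Its log2 fold change was 0.35 (edgeR adjusted p = 0.187), and 0.53 without Srsf1-cKO replicate 3, where it was called (adjusted p = 0.0306). For Eprs, Iars, Kars, Lars, Rars and Dars the adjusted p lay between 0.342 (Kars) and 0.987 (Eprs). Of the scaffold genes, Aimp1 stood at 107 ± 21.2 and 80.7 ± 6.55 CPM, Aimp2 at 46.4 ± 6.56 and 44.7 ± 3.39, and Eef1e1 at 233 ± 7.82 and 286 ± 39.6 (WT and Srsf1-cKO, SD, n = 3). Of these 3 genes 0 passed, beside 18.4% of all genes (1, Aimp1, had an unadjusted p under 0.05 and edgeR adjusted p = 0.112). Aimp1 passed without WT replicate 3 (-0.57, adjusted p = 0.0248).

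Among the cytosolic enzymes outside the complex, Sars (serine) was the farthest below WT. It stood at 749, 677 and 591 CPM in WT and at 599, 503 and 357 in Srsf1-cKO, with a log2 fold change of -0.47 (SE 0.19, edgeR adjusted p = 0.118). Only Srsf1-cKO replicate 1 reached into the WT range. Vars, the valine enzyme, which binds elongation factor 1, had a log2 fold change of -0.18 (adjusted p = 0.399). Farsa and Farsb encode the alpha and beta subunits of the phenylalanine enzyme. Their log2 fold changes were 0.00 and 0.09, and the ratio of Farsb to Farsa FPKM was 2.38 ± 0.269 in WT and 2.55 ± 0.464 in Srsf1-cKO (exact permutation p = 0.7). Wars, the tryptophan enzyme, is known as an interferon-induced gene. It stood at 132, 115.2 and 136 CPM in WT and at 139.9, 148 and 115 in Srsf1-cKO (adjusted p = 0.752). By structural class, 0 of 18 genes of class I were called (2 at an unadjusted p under 0.05). Of 17 genes of class II, 1 was higher and 1 lower (11.8%), beside 18.4% of all genes called in either direction.

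The Srsf1-cKO libraries differed widely among themselves in the cytosolic genes. Summed over the 20 genes, they held 1848, 1845 and 1642 FPKM in WT and 2146, 2058 and 1452 in Srsf1-cKO. On this scale replicates 1 and 2 of Srsf1-cKO were above every WT library and replicate 3 was below every one. The means of 1778 ± 118 and 1885 ± 378 FPKM (SD, n = 3) gave exact permutation p = 0.6. As TMM-scaled CPM the sums were 7738, 7224 and 6577 in WT and 8108, 7427 and 5263 in Srsf1-cKO, so that replicate 3 was again lowest but replicate 2 lay within the WT range. The difference of the means then had the other sign, at 7179.8 ± 582 and 6933 ± 1486 CPM (SD, n = 3, exact permutation p = 0.9). Of the 20 genes, 14 had their lowest CPM in Srsf1-cKO replicate 3 and 3 in WT replicate 3, beside 20.2% and 21.1% of all genes tested. Of the 20, 9 were higher in both Srsf1-cKO replicates 1 and 2 than in any WT library, beside 27% of all genes.

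This split was widest among 12 genes listed as known ATF4 targets (Aars, Cars, Eprs, Gars, Iars, Lars, Mars, Nars, Sars, Tars, Wars and Yars). Of these, 11 were lowest in Srsf1-cKO replicate 3, all but Mars, and 3 of the 8 other cytosolic genes and 4 of the 15 mitochondrial genes were. Relative to its WT mean, the median gene of the 12 stood at a log2 value of 0.21 in Srsf1-cKO replicate 1, 0.11 in replicate 2 and -0.52 in replicate 3. For the 8 other cytosolic genes these values were 0.23, 0.13 and -0.10. In replicate 3 the 12 genes held between 48.9% (Cars) and 79.9% (Wars) of the mean CPM of replicates 1 and 2. Cars, the cysteine enzyme, stood at 252, 216 and 114 CPM in these 3 libraries and at 247, 221 and 210.1 in WT. Yars, the tyrosine enzyme, stood at 259, 247 and 128 CPM, and at 298, 251 and 222 in WT. Iars, the isoleucine enzyme, stood at 673, 648 and 374 CPM, and at 752, 619.7 and 680.1 in WT. In each of these genes replicate 3 was far below the other 5 libraries.

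None of the 12 passed the test of genotype, beside 18.4% of all genes (1, Sars, had an unadjusted p under 0.05). Their median log2 fold change was -0.01, or 0.18 without Srsf1-cKO replicate 3. Atf4 mRNA was also lowest in Srsf1-cKO replicate 3, at 1027, 809.7 and 791 CPM in WT and at 905, 886 and 536 in Srsf1-cKO (edgeR adjusted p = 0.58). Srsf1-cKO replicate 3 also held the highest summed CPM of the CD4 T cell markers (3290.3, against 2444 and 2284 in replicates 1 and 2) and of the myeloid markers (22.1, against 7.46 and 11.6). Among the Srsf1-cKO libraries it held the lowest sums of B cell markers (8.26, against 13.6 and 21.4) and of dendritic cell markers (21.9, against 24.4 and 32.3). Of the dendritic cell markers with counts in these libraries, only H2-Aa was lowest in replicate 3, at 11.5 CPM. The others, Zbtb46 (8.82 CPM), Itgax (1.22 CPM) and Flt3 (0.28 CPM), were highest in replicate 3 among the Srsf1-cKO libraries. The lower dendritic sum therefore does not hold for these markers as a set. The part of these differences in the lower synthetase levels was not tested.

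**Figure D4:**
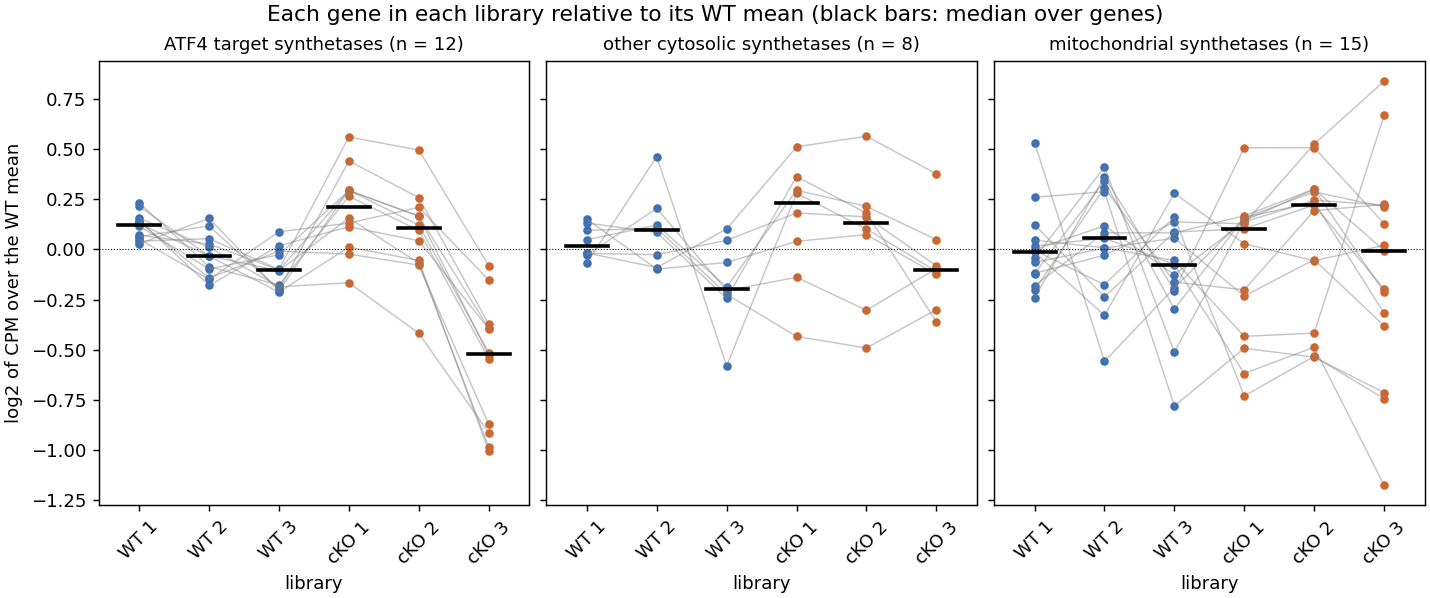
Log2 of CPM over the WT mean for each gene (grey lines) in each library, with the median over genes as a black bar, for the 12 listed ATF4 targets, the 8 other cytosolic genes and the 15 mitochondrial genes (cKO stands for Srsf1-cKO). The median of the 12 drops to -0.52 in Srsf1-cKO replicate 3, against -0.10 for the other cytosolic genes.

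Promoters were searched for the core of the C/EBP-ATF response element, the composite site that ATF4 is known to bind. RefSeq promoters (GRCm38.p6, 250 bases before to 50 after the start) were matched for 26 of the 35 synthetase genes. The core TGATGNAA, on either strand and searched alone, was present in 5 of these 26, beside 4.51% of the 27025 genes with a promoter. All 5 belong to the ATF4 list, of which 8 genes had a promoter, and 0 of the 18 other synthetase genes with one held it. The list is of known ATF4 targets and the core belongs to a site that ATF4 is known to bind. List and core are therefore not independent, and the split adds no support. In the list of amino acid response genes below the core was present in 6 of 23. A match is a description of the letters and not a bound site. The stretches around each match are shown 5′ to 3′ on the gene's strand, with the match in capitals (as its reverse complement where it lies on the other strand, in all but Yars), because all 5 genes had their lowest level in Srsf1-cKO replicate 3. So did Eprs and Sars, genes of the list with a promoter and no match.
Aars, chr8:111033690-111033777, plus strand, 112 bases before the start: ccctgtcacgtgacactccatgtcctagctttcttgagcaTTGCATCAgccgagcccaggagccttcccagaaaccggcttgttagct
Aars, chr8:111033840-111033869, plus strand, after the start: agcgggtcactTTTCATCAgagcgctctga
Gars, chr6:55037931-55038000, plus strand, 30 bases before the start: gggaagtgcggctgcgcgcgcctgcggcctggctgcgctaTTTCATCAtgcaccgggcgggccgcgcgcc
Tars, chr15:11399659-11399713, minus strand, 15 bases before the start: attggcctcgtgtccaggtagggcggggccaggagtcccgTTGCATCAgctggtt
Iars, chr13:49682126-49682155, plus strand, after the start: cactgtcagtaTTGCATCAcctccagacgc
Yars, chr4:129189895-129189924, plus strand, after the start: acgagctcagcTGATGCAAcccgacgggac

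Aars, the alanine enzyme, stood at 368, 357 and 326 CPM in WT and at 429.5, 393 and 243 in Srsf1-cKO. Gars stood at 803, 693 and 727 CPM in WT and at 908, 832 and 565 in Srsf1-cKO. Tars stood at 477, 381 and 437 CPM in WT and at 467, 444 and 328 in Srsf1-cKO. In these 3 genes Srsf1-cKO replicate 3 was below every WT library, and in Aars and Gars the other Srsf1-cKO replicates were above every one. In Tars, as in Iars and Yars above, those replicates lay within the WT range.

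The mitochondrial genes were dominated by Lars2. It stood at 1439, 677 and 872 CPM in WT and at 1110.3, 1215 and 1154 in Srsf1-cKO, with a log2 fold change of 0.22 (SE 0.24, edgeR adjusted p = 0.55). WT alone spanned more than a 2-fold range, and the Srsf1-cKO libraries lay inside it. Rn45s, whose row holds the precursor of ribosomal RNA, stood at 20203, 6071 and 12443 CPM in WT and 16715, 18261 and 16029 in Srsf1-cKO. Both genes were lowest in WT replicate 2, next lowest in WT replicate 3, and highest in WT replicate 1. The part of ribosomal RNA reads in the Lars2 level was not tested. The log2 fold change was 0.22 also with the Rn45s row left out. That step takes no reads from the Lars2 row, so it cannot test this part. The share of 75-base stretches of Lars2 transcripts found in transcripts of another gene of GENCODE M21 was 0%. Whether those transcripts include the ribosomal RNA precursor was not checked. Without Lars2 the mitochondrial genes summed to 77.2, 85.5 and 80.6 FPKM in WT and to 87.2, 96.0 and 81.2 in Srsf1-cKO (exact permutation p = 0.2). As CPM these sums were 272, 287 and 281 in WT and 282, 302 and 261 in Srsf1-cKO (exact permutation p = 0.9), with no separation of the genotypes on either scale.

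The mitochondrial tryptophan gene Wars2 had the lowest log2 fold change of the 35 members. It stood at 13.9, 14.3 and 13.1 CPM in WT and at 8.97, 9.82 and 6.1 in Srsf1-cKO, without overlap, at -0.73 (SE 0.22, edgeR adjusted p = 0.0512). It thus just missed the threshold here and was called with RLE scaling (adjusted p = 0.0488), with no filter (0.0496), by DESeq2 (0.0347) and by limma-voom (0.0447). With each library left out in turn Wars2 was never called by edgeR (adjusted p between 0.0565 and 0.147). Nor was it called by limma on log2(FPKM + 1) (adjusted p = 0.106). Fars2, for phenylalanine, stood at 14.9, 15.2 and 7.26 CPM in WT and at 8.86, 8.59 and 7.6 in Srsf1-cKO. WT replicate 3 was the lowest of all 6 libraries, and the log2 fold change of -0.58 (adjusted p = 0.186) became -0.87 without that library, where Fars2 was called (adjusted p = 0.0214). In the annotation, 10.7% of the exonic bases of Fars2 overlap genes on the other strand. Pars2, for proline, stood at 4.64, 4.94 and 5.54 CPM in WT and at 5.51, 7.26 and 9.01 in Srsf1-cKO (0.53, SE 0.26, adjusted p = 0.181). Rars2, for arginine, and Tars2, for threonine, had log2 fold changes of 0.39 and 0.20 (adjusted p = 0.224 and 0.356). For the other 8, which include Iars2, 24.2% of whose exonic bases overlap genes on the other strand, the adjusted p lay between 0.458 (Iars2) and 0.996 (Mars2).

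Beyond the synthetases, genes of neighbouring steps were described by lists. Of 4 genes of elongation factor 1, which delivers charged tRNA to the ribosome, 3 fell (75%, beside 18.4% of all genes called in either direction). Eef1a1, its tRNA-binding subunit, fell from 18881 ± 1335 to 12686 ± 1036 CPM, Eef1b2 from 1734 ± 114 to 1097 ± 49.5 and Eef1g from 818 ± 71.2 to 474 ± 15.7 (edgeR adjusted p = 0.0173, 0.0102 and 0.00746). Eef1d, at 266 ± 48.5 and 206 ± 10.3 CPM, did not pass (adjusted p = 0.121). The list's median log2 fold change was -0.62, beside 0.04 over the synthetases.

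Of 22 tested genes of tRNA maturation 4 rose and 0 fell (18.2%, near the 18.4% of all genes; median log2 fold change 0.03). Pop1, a subunit of the RNases P and MRP, stood at 22.6, 27.4 and 33.3 CPM in WT and at 56.3, 76.7 and 79.5 in Srsf1-cKO (1.35, SE 0.20, edgeR adjusted p = 0.00667). Rpp40 and Rpp14, further subunits of these enzymes, rose from 7.83 to 17.6 and from 46.2 to 66.2 CPM. Fam98b, part of the tRNA ligase complex, rose from 61.5 ± 5.79 to 105.9 ± 5.28 CPM (adjusted p = 0.00886). Xpot, which exports tRNA from the nucleus and had the highest CPM of the list, did not pass (469 and 399 CPM, adjusted p = 0.255), nor did Ssb, the most abundant per length (128 and 148 FPKM, adjusted p = 0.547). In all 4 called genes the groups did not overlap, beside 39.4% of all genes tested. The calls rest on the same counts, so this adds no support to them.

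Of 24 genes of RNA polymerase III, which transcribes tRNA genes, and of its factors, 2 fell and 2 rose (median 0.07). That is 16.7%, near the 18.4% of all genes. Maf1, a repressor of this polymerase, fell from 57.9 ± 3.49 to 31.99 ± 0.961 CPM and Polr1d, a subunit shared with polymerase I, from 208 ± 25.8 to 118 ± 7.12 (edgeR adjusted p = 0.00801 and 0.00862). Gtf3c3 and Gtf3a, of the factors TFIIIC and TFIIIA, rose from 27.7 to 43.5 and from 27.6 to 42.8 CPM. Polr1d was also the most abundant per length, at 325 and 250.02 FPKM, and Bdp1, highest by CPM, had adjusted p = 0.987. Of 13 tested genes of synthetase-like, editing and related enzymes 2 rose and 0 fell (median 0.33), or 15.4% beside 18.4% of all genes. They were Aarsd1, an editing protein related to Aars (21.9 to 33.7 CPM), and Dtd2, a deacylase that clears mischarged tRNA (4.47 to 8.36 CPM). Tarsl2 and Mtfmt came next and did not pass (adjusted p = 0.205 and 0.21). The number higher in this list was 0 without WT replicate 1, WT replicate 2, Srsf1-cKO replicate 2 or Srsf1-cKO replicate 3, and 1 without either of the other libraries. Of 18 tested mitochondrial translation factors 1 rose and 0 fell, or 5.56% beside 18.4% of all genes. The gene was Trit1, which modifies tRNA (19.0, 21.3 and 20.2 CPM in WT and 35.4, 33.1 and 36.4 in Srsf1-cKO, edgeR adjusted p = 0.0112). Mtif3, Mtfmt, Tufm (the most abundant per length) and Gfm1 (highest by CPM) did not pass (adjusted p = 0.0641, 0.21, 0.273 and 0.317).

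Of 27 genes of the amino acid response, 4 fell and 0 rose (14.8%, beside 18.4% of all genes). Their median log2 fold change was -0.07, and 8 had an unadjusted p under 0.05, beside 3644 of the 10454 genes tested. The number higher was 1 by DESeq2, by limma-voom, with upper-quartile scaling, with a mean CPM of at least 5 and in the FPKM fits, and 2 with library size alone. Atf5, a factor of the ATF4 family, stood at 62.9, 48.1 and 49.8 CPM in WT and at 24.6, 16.1 and 9.11 in Srsf1-cKO (-1.69, SE 0.31, edgeR adjusted p = 0.0114). Atf3 fell from 118 to 64.0 CPM, Slc38a2, an amino acid transporter, from 1151 to 571 CPM, and Ppp1r15a, which ends the stress signal, from 116 to 72.4 CPM. Slc7a1, an arginine transporter with the highest CPM of the list, stood at 936 ± 37.9 and 1119 ± 54.4 CPM (adjusted p = 0.141), and Atf4 was the most abundant per length, at 483 and 461 FPKM. Eif2ak4, which encodes GCN2, stood at 31.8, 35.8 and 40.4 CPM in WT and at 50.8, 53.6 and 46.9 in Srsf1-cKO, without overlap (0.49, SE 0.15, edgeR adjusted p = 0.0517). Of the 27, 16 were lowest in Srsf1-cKO replicate 3 (59.3%, beside 20.2% of all genes tested). Without that library 3 members rose, beside 689 of the 10548 genes then tested. They were Asns (0.71), Slc7a11 (0.78) and Slc7a3 (0.92), chosen after their values were seen. Asns, which makes asparagine, stood at 255, 273 and 269 CPM in WT and at 470.02, 396 and 207 in Srsf1-cKO, so that replicates 1 and 2 were above every WT library and replicate 3 below.

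Of 10 tested interferon response genes, listed because Wars is induced by interferon, 2 fell, Gbp2 (819 to 376 CPM) and Tap1 (354 to 231 CPM), and 1 rose, Cxcl10 (1.43 to 5.63 CPM). That is 30% of the list, beside 18.4% of all genes. Socs1 did not pass (11.5 and 22.99 CPM, adjusted p = 0.0523). Myeloid and B cell markers were higher in the same libraries, and their part in Cxcl10 was not tested. Of the 21 genes called in these lists, only 3 passed when WT replicate 1 was dropped and only 1 when Srsf1-cKO replicate 2 was, against 16 to 18 when any other single library was dropped.

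**Figure D5:**
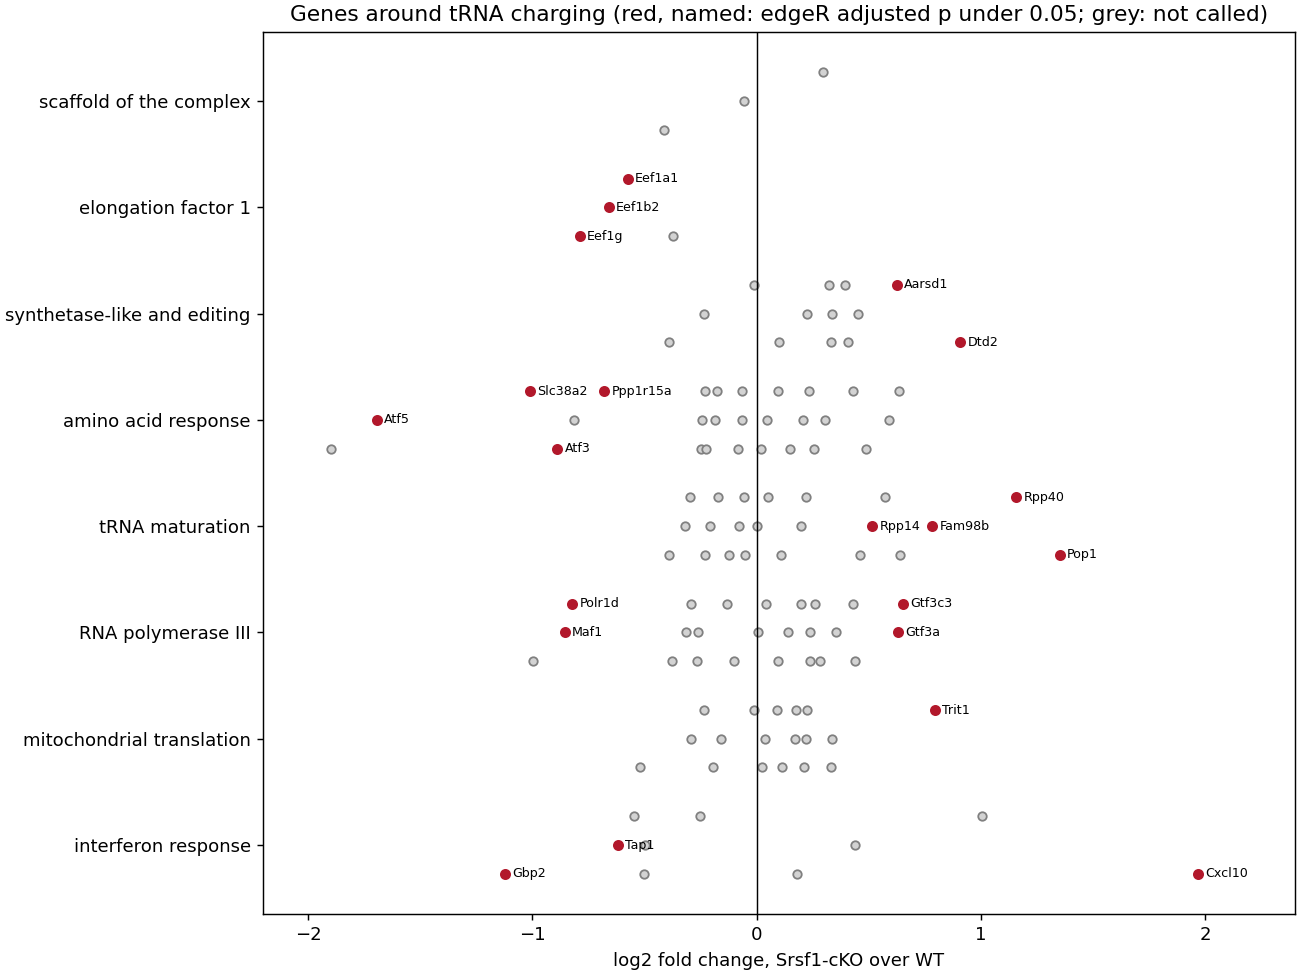
Log2 fold change, Srsf1-cKO over WT, of each tested gene of the lists around tRNA charging, 1 point per gene (red and named where edgeR's adjusted p was under 0.05, grey otherwise; vertical offsets only separate points). Elongation factor 1 genes lie left of 0, the called tRNA maturation genes lie right of it, and called genes of the amino acid response lie left of it.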

How the data were processed

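RNA was sequenced from 6 mouse libraries, 3 per genotype, as single-end reads of 75 bases from a stranded mRNA kit, per the design text. The deposited read counts per gene were made by the authors with STAR (2.4.2a, per the file headers) on mm9, per the submitters' processing notes. The program and annotation behind the counting, and its strand setting, are items not given in the sources used here. Cufflinks made the authors' second table, per the submitters' processing notes. Its deposited values were taken as FPKM from their range and their ratio to the counts. A deposited alignment report with other metrics was read for mapping.

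Counts were tested with edgeR 4.0.16 (R 4.3.3) by its two-sided quasi-likelihood test, with filterByExpr, TMM scaling and genotype as the single term, over 10454 genes, with Benjamini-Hochberg adjustment and a threshold of 0.05. Standard errors were taken from the F statistic, and 95% intervals from them. As an alternative, limma 3.58.1 was run on log2(FPKM + 1) for 9617 genes that reached 1 FPKM in 3 or more libraries, where the median of all genes was 0.10. Sums and ratios per library were compared by two-sided exact permutation. Alternatives were other scalings, filters, tools (DESeq2 1.42.0, limma-voom), a replicate block and each library left out. The fits were tested on simulated counts with known changes, where the share of false calls was above the nominal level, so calls close to the threshold are uncertain. The members and lists were chosen with earlier results of these data known. From each list the text names up to 4 genes with the smallest adjusted p and the most abundant, by CPM and also named by FPKM. Atf4, Asns, Slc7a11, Slc7a3 and Rn45s were added after their values were seen. Promoters were to be printed only for called genes and are shown for 5 others, chosen after their values were seen. Replicates are separate mice per the design text. Columns left unused number 0.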

Additional observations from a re-analysis of the deposited data

How the results depend on the processing

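The number of synthetase genes called higher (1) was 0 at an adjusted p of 0.01, and ranged from 0 to 2 with each library left out. The number called lower (1) was 2 with RLE scaling, no filter or limma-voom, 3 with DESeq2, the replicate block or an adjusted p of 0.1, and 0 with FPKM without a filter or at an adjusted p of 0.01, and ranged from 0 to 3 with each library left out. Over all genes, 930 higher and 993 lower became 133 and 146 at 0.01 and 1452 and 1520 at 0.1. The lower count was 615, 607 and 390 with FPKM at a pseudocount of 1, at 0.1 and without a filter. With libraries left out, the higher count ranged from 80 (without WT replicate 1) to 968 and the lower from 103 (without Srsf1-cKO replicate 2) to 1074. Genes of the related lists, 10 higher and 11 lower, ranged from 1 to 11 and from 0 to 13, and 4 were lower with FPKM without a filter. Library-size scaling moved the median of all genes from 0.01 to 0.11, and that of the cytosolic genes from 0.01 to 0.11. The replicate numbers are not said to pair mice. Deviations of same-numbered libraries correlated at 0.25, 0.01 and 0.29, and the best match of WT number 2 was another number. With the replicate block Sars (adjusted p = 0.0325) and Wars2 (0.0365) were also called lower. Over all alternatives no called value changed sign, whereas 68 of 595 values had the opposite sign without a call in either fit. Why calls changed was not tested. The depth gave mitochondrial genes as few as 26 counts in a library, and 3 libraries a group limit what can be called.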
